A study of Mus musculus with 6 samples.

Results

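Cytosolic ribosomal protein genes were examined in RNA sequenced from breast tumors that had been raised in mice with 4T1 cells, a cultured mammary carcinoma line of BALB/c origin. The genes were taken by their symbols: every row of the gene table whose symbol starts with Rpl, Rps, Rplp or Rpsp followed by a digit was kept, and the Rps6k kinases, whose names begin alike, were left out. This took 90 of 16763 genes. Of these, 76 encode subunits of the cytosolic ribosome, 46 of the large subunit with its stalk and 30 of the small subunit. A further 7 are paralogs, 6 are named as pseudogenes, and Rps19bp1 encodes a protein that binds Rps19 without being a subunit. The name of the group thus holds for 76 of its 90 rows, and the other rows are described apart from them.

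All animals were of the BALB/c strain and labelled male, and all carried tumors from 4T1 cells. The model group had such tumors with no further agent named, and the other group was given DMDD, an abbreviation that the labels do not spell out, packed in liposomes. The sources used here give no dose, duration or age of the animals. The sample descriptions speak of rats, whereas the organism field, the strain and the gene symbols are those of mouse. Each group had 3 libraries. Nothing in the labels ties each library to its own animal, so every p-value speaks of the spread among these libraries alone, which may be technical. A 4T1 tumor is a graft of a cultured line into a host, so each bulk library mixes carcinoma and host cells, and fewer cells of a type cannot be told apart from less RNA per cell. Counted reads ran from 13037500 to 15616840 per library. Epithelial tumor cell markers were present in every library: all 10 listed genes had counts throughout. Their summed level ran from 4170 to 7030 CPM, counts scaled to library size, in model and from 3860 to 4790 CPM in DMDD liposome tumors. Log2 fold changes of DMDD liposome over model were negative for 8 of these 10 markers, as given further below.

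The ribosome joins a small subunit, which reads the messenger RNA, to a large subunit, which forms peptide bonds and releases the growing chain through its exit tunnel. Most ribosomal proteins are needed in equal amounts, and their messengers carry a terminal oligopyrimidine (TOP) tract at the 5′ end through which growth signalling by mTOR controls their translation. In rapidly dividing tumor cells ribosome production is among the largest uses of cell resources. Ribosomal protein genes are also known in mammals for their many processed pseudogenes, copies of the messenger set back into the genome, a few of which keep an intact reading frame.

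Copies of this kind bear on how the counts can be read, and 3 families show it in the sequence itself. The stretches below are coding bases taken from the GENCODE M21 transcripts of build GRCm38, printed 5′ to 3′, and capitals mark bases that differ from the first gene of each family. They are shown because the first 2 families have a copy with no difference at all, while the third has a near copy and a distant one. The Rps12 family is given over coding bases 1 to 60, the Rps27 family over bases 4 to 63 and the Rpl36a family over bases 115 to 174.
Rps12 (chromosome 10): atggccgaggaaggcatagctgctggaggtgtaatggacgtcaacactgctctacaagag
Rps12-ps3 (chromosome 19): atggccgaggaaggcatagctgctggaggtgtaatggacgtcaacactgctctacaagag
Rps27 (chromosome 3): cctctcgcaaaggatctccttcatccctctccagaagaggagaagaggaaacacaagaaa
Rps27rt (chromosome 9): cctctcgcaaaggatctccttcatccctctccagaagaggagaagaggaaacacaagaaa
Rps27l (chromosome 9): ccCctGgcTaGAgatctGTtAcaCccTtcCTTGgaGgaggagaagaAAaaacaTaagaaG
Rpl36a (chromosome X): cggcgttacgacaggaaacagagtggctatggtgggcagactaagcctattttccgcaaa
Rpl36a-ps1 (chromosome 14): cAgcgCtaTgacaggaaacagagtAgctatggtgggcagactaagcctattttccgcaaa
Rpl36al (chromosome 12): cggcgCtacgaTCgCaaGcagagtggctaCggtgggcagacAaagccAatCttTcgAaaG

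Over the whole coding sequence Rps12-ps3 differs from Rps12 at 0 of 396 bases and Rps27rt from Rps27 at 0 of 252, whereas Rps27l differs from Rps27 at 60 of 252. Rpl36a-ps1 differs from Rpl36a at 7 of 318 bases and Rpl36al at 39 of 318. In the stretches above the differences number 19 for Rps27l, 4 for Rpl36a-ps1 and 12 for Rpl36al. The Rps27 and Rpl36a stretches were picked as the 60 coding bases with the most differences to Rps27l and to Rpl36al. The counts for Rps27l and Rpl36al are therefore the highest of any stretch of that length. A read that lies inside an identical stretch cannot be placed by its sequence. Which aligner and counter were used, and what was done with reads matching several genes, is not stated in these sources, and the split of counts within such families is therefore uncertain.

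The ribosomal protein genes together took between 2.58% and 3.20% of the counted reads of a library. Their summed level, scaled by the trimmed mean of M-values (TMM), was 28621, 31924 and 26427 CPM in model libraries 1 to 3 and 26319, 28279 and 27747 CPM in DMDD liposome libraries 1 to 3. The DMDD liposome values lay inside the model range except in library 1, which was just below it. Group means were 28990 ± 2767 CPM (SD, n = 3) for model and 27448 ± 1014 CPM (SD, n = 3) for DMDD liposome, a ratio of 0.947. The difference between these means was smaller than the SD of the model group. Large subunit genes summed to 13462 ± 1558 CPM in model tumors, against 12871 ± 361 CPM in those given DMDD liposomes (SD, n = 3 each). For the small subunit these sums were 13628 ± 1166 and 12829 ± 617 CPM. The ratio of large to small subunit sums lay between 0.966 and 1.04 in all 6 libraries, so the summed counts of both subunits kept close to each other whichever group a library belonged to.

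Although most of their proteins occur in equal numbers in the particle, the subunit genes had very unequal listed levels. Per length, as the authors' deposited FPKM, which divide each count by gene length and library depth, mean levels over 6 libraries ran from 1.48 for Rps10 to 2366 for Rplp1, a 1600-fold range with a median of 59.2 FPKM. Of the 76 subunit genes, 36 were under 50 FPKM. Between 8 and 11 of them had fewer than 100 counts in a given library while 15 to 19 had at least 10000, and the 10 most counted genes held from 50.7% to 52.6% of subunit counts. The order was nearly the same in every library: Spearman's rho of subunit FPKM between libraries lay from 0.992 to 0.997 over the 15 pairs, which share the genes and their lengths.

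**Figure D1:**
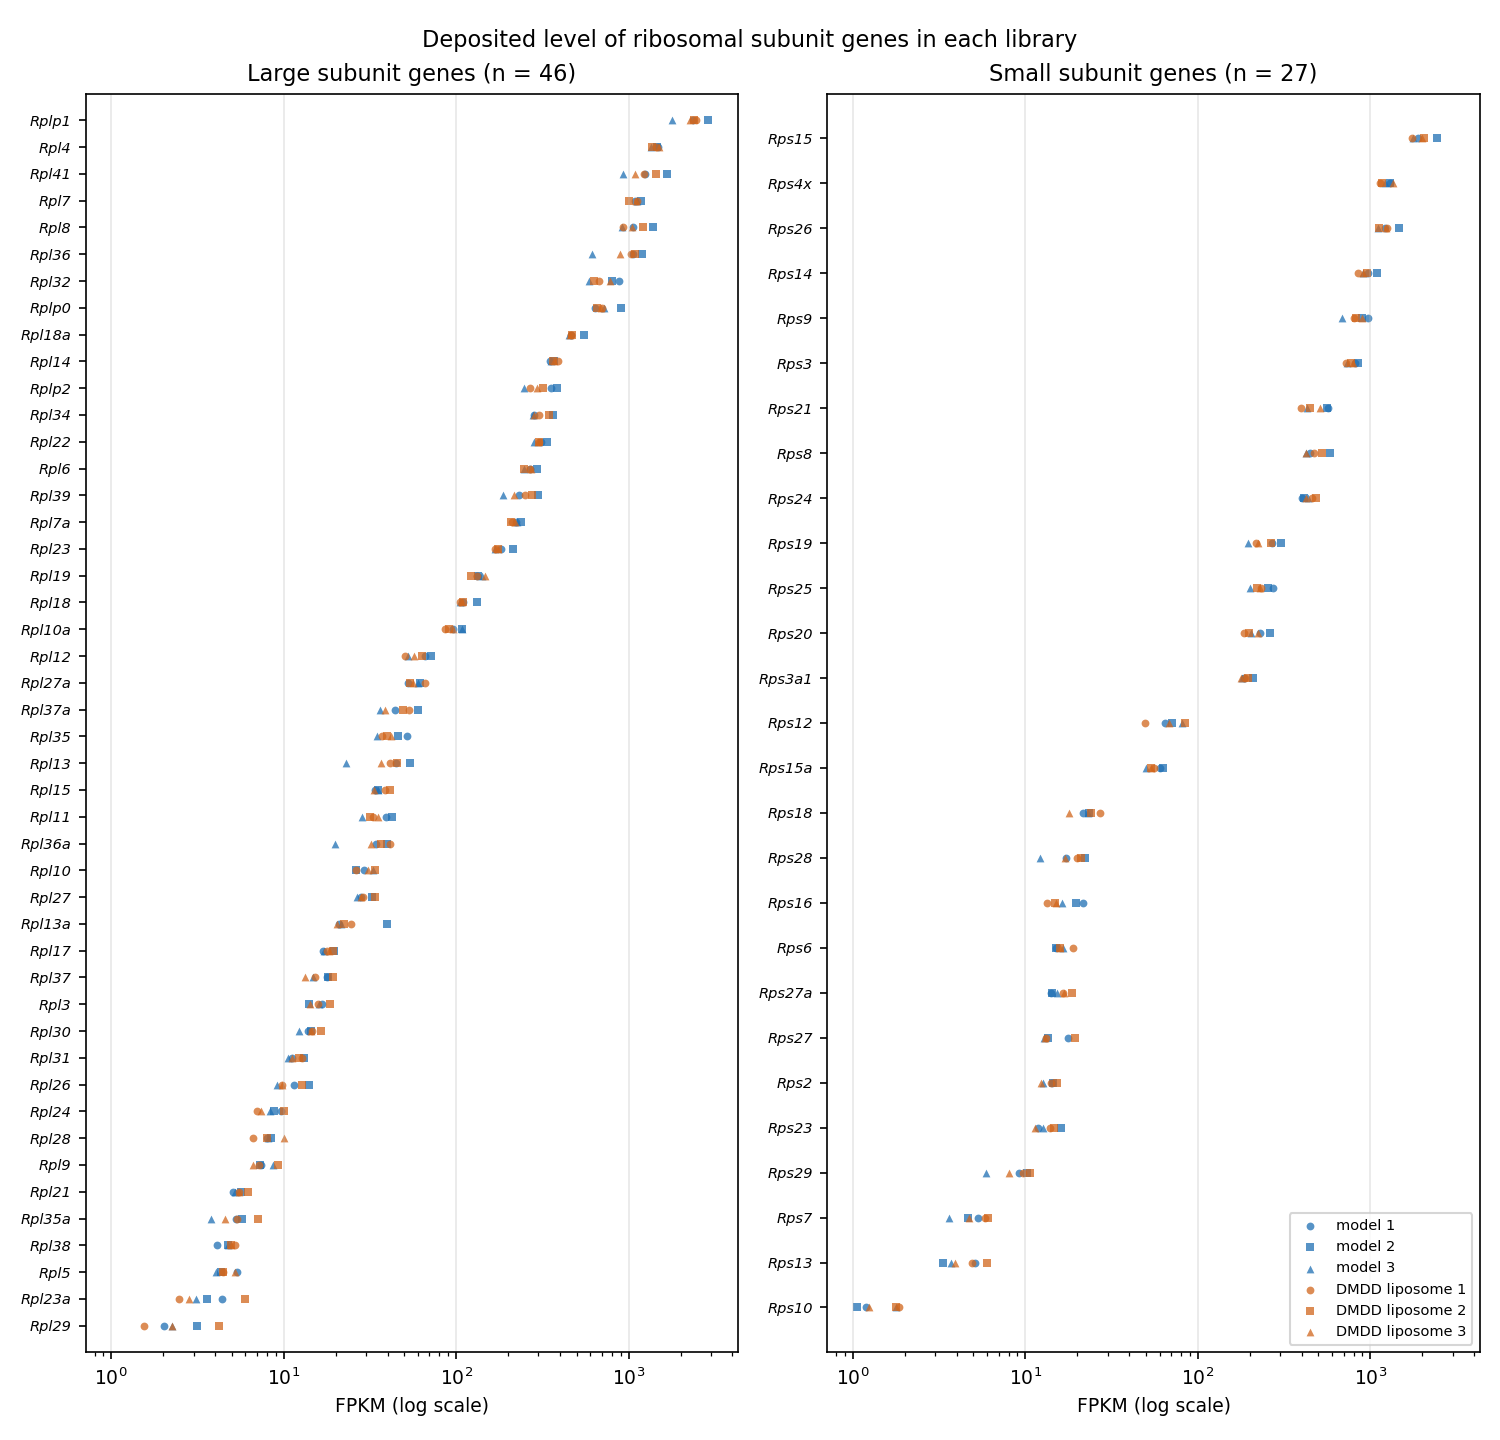
FPKM (log scale) of 46 large subunit genes (left) and 27 small subunit genes (right) in each library, with blue symbols for model and orange symbols for DMDD liposome libraries 1 to 3. Genes are ordered by mean level, which falls from 2366 FPKM for Rplp1 to 1.48 FPKM for Rps10, and for most genes the 6 symbols lie close together compared with the distance between genes.

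Among large subunit proteins, the stalk genes were all well represented. Rplp0, the stalk's anchor on the ribosome, had a mean of 717 FPKM, and Rplp1 and Rplp2, whose proteins pair on Rplp0 to recruit elongation factors, had means of 2366 and 311 FPKM. Rpl4, which lines the exit tunnel, stood at 1435 FPKM and had more counts than any other of the 90 genes, between 28119 and 34999 per library. Rpl41, which encodes a very short basic peptide of the large subunit, stood at 1266 FPKM. At the other end, Rpl5 stood at 4.64 FPKM, Rpl23a at 3.72 FPKM and Rpl29 at 2.57 FPKM. Rpl23a sits at the mouth of the exit tunnel, and Rpl5 carries the 5S ribosomal RNA, so these low values belong to integral parts of the particle.

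The small subunit showed the same spread. Rps15 stood at 1987 FPKM. Rps3, at the messenger's entry, had 779 FPKM and its neighbour Rps9 had 848 FPKM. Rps10, another protein of the entry side, was listed with 19, 20 and 34 counts in the model and 31, 29 and 22 counts in the DMDD liposome libraries, or 1.48 FPKM on average. Rps13 stood at 4.49 FPKM and Rps7 at 5.03 FPKM. Low listed levels were thus found in both subunits, next to partners listed more than 100 times higher.

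Among the subunit genes, listed level went with how much of a transcript is also found elsewhere. For a representative transcript of each gene, all windows of 100 bases, untranslated ends included, were looked up in the transcripts of every other gene of the annotation, pseudogenes included, on both strands. All 90 symbols were found there. Of the 76 subunit genes, 71 shared at least 1 window with another gene and 69 with at least 1 pseudogene. The 12 subunit genes sharing less than 10% of windows had a median of 605 FPKM, with 1 of them under 50 FPKM. The 37 genes sharing from 10% to under 50% had a median of 60.1 FPKM, with 17 under 50. The 27 genes sharing 50% or more had a median of 29.7 FPKM, with 18 under 50. Medians thus stepped down from the least to the most shared genes, while each class spanned a wide range.

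As a description over the 76 subunit genes, Spearman's rho between shared percentage and mean FPKM was -0.51 and Pearson's r with log level -0.49 for windows of 100 bases. With windows of 50 bases rho was -0.34 and with 150 bases -0.56. These points share the 6 libraries, the annotation and the gene lengths behind FPKM. The relation had exceptions on both sides. Rpl36 shared 55.3% of its windows and stood at 978 FPKM, and Rpl13a shared 1.06% and stood at 24.9 FPKM. Rows outside the 76 were not part of it and lay far apart. Rps12-ps3 shared 100% and stood at 1452 FPKM, Rps27rt 89.5% and 1482 FPKM, and Rpl27-ps3 100% and 0.970 FPKM. Whether read assignment had a part in the low levels was not tested.

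Subunit genes whose symbols the pattern misses gave similar values. Rack1, the scaffold protein on the small subunit head, shared 0% of windows and stood at 1618 FPKM. Rpsa shared 31.1% and stood at 600 FPKM, and Fau, which encodes a ubiquitin-like fusion to a small subunit protein, shared 58.9% and stood at 43.5 FPKM. The pair of glycolytic genes examined in the same way lay at either end: Gapdh, with 82 pseudogenes sharing a window, was listed at 9.94 FPKM, and Aldoa, with 0, at 1803 FPKM. Gapdh and Aldoa were chosen after their values were seen.

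**Figure D2:**
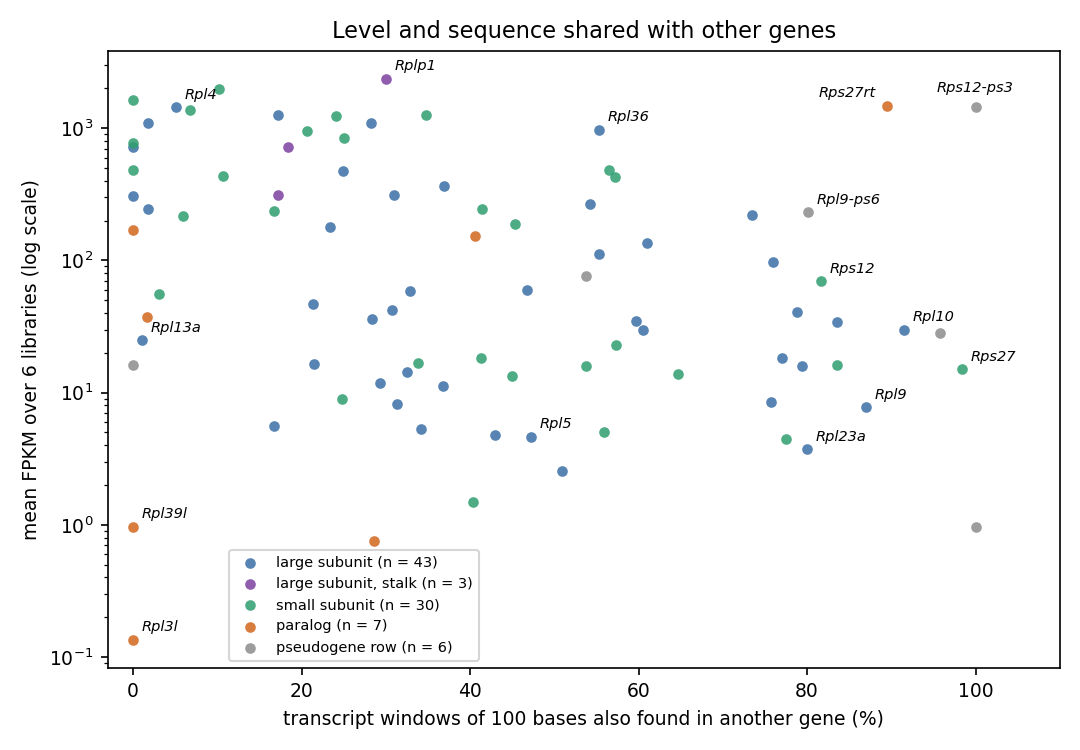
Mean FPKM over 6 libraries (log scale) against the percentage of 100-base transcript windows also found in another gene, 1 point per gene, coloured by class (Rps19bp1 is not plotted). Points above 500 FPKM are common at the left, where Rpl4 lies, and scarce at the right, where Rps12, Rps27 and Rpl9 lie far below Rps12-ps3, Rps27rt and Rpl9-ps6.

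In several families the row named as a copy held most of the counts. Rps12 had 543, 711 and 811 counts in the model and 440, 725 and 641 in the DMDD liposome libraries. Rps12-ps3, identical over the coding sequence, had 8295, 10802 and 15601 counts in the model and 7985, 8677 and 10836 in the DMDD liposome libraries. The copy was therefore listed at 12 to 19.2 times its parent in every library of both groups.

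The Rps27 family showed the same order. Rps27, a zinc-binding protein of the small subunit, had 107, 97 and 93 counts in the model and 84, 121 and 88 in the DMDD liposome libraries. Rps27rt, its retrogene with the same coding bases, had 7703, 11193 and 6516 counts in the model and 7240, 7486 and 7443 in the DMDD liposome libraries, 61.9 to 115 times as many. Rps27l, the paralog with 60 differing bases and 0% of 100-base windows shared, had between 1149 and 1669 counts. Rpl9-ps6, which differs from Rpl9 at 1 of 576 coding bases, was listed at 6.56 to 9.06 times the counts of its parent. Means were 232 FPKM for the copy and 7.72 FPKM for Rpl9. The gap in FPKM is wider than that in counts because the gene lengths behind FPKM differ. These lengths were 691 bases for Rpl9-ps6 and 2735 bases for Rpl9.

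Rpl36a-ps1 also lay above its parent in every library, with 1.79 to 2.41 times the counts of Rpl36a. The remaining copies did not follow that order. Rpl10-ps3, with 0 of 642 coding bases different from Rpl10, lay on both sides of its parent, at 0.441 to 1.52 times its counts. Rpl13a-ps1, with 29 of 609 bases different, had 0.225 to 0.513 times the counts of Rpl13a. Rpl27-ps3, with 0 of 408 bases different, had 0.0115 to 0.0304 times the counts of Rpl27, or 4 to 11 counts per library, and was too low to be tested. An identical coding sequence thus came with copy to parent ratios from 0.0115 to 115.

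**Figure D3:**
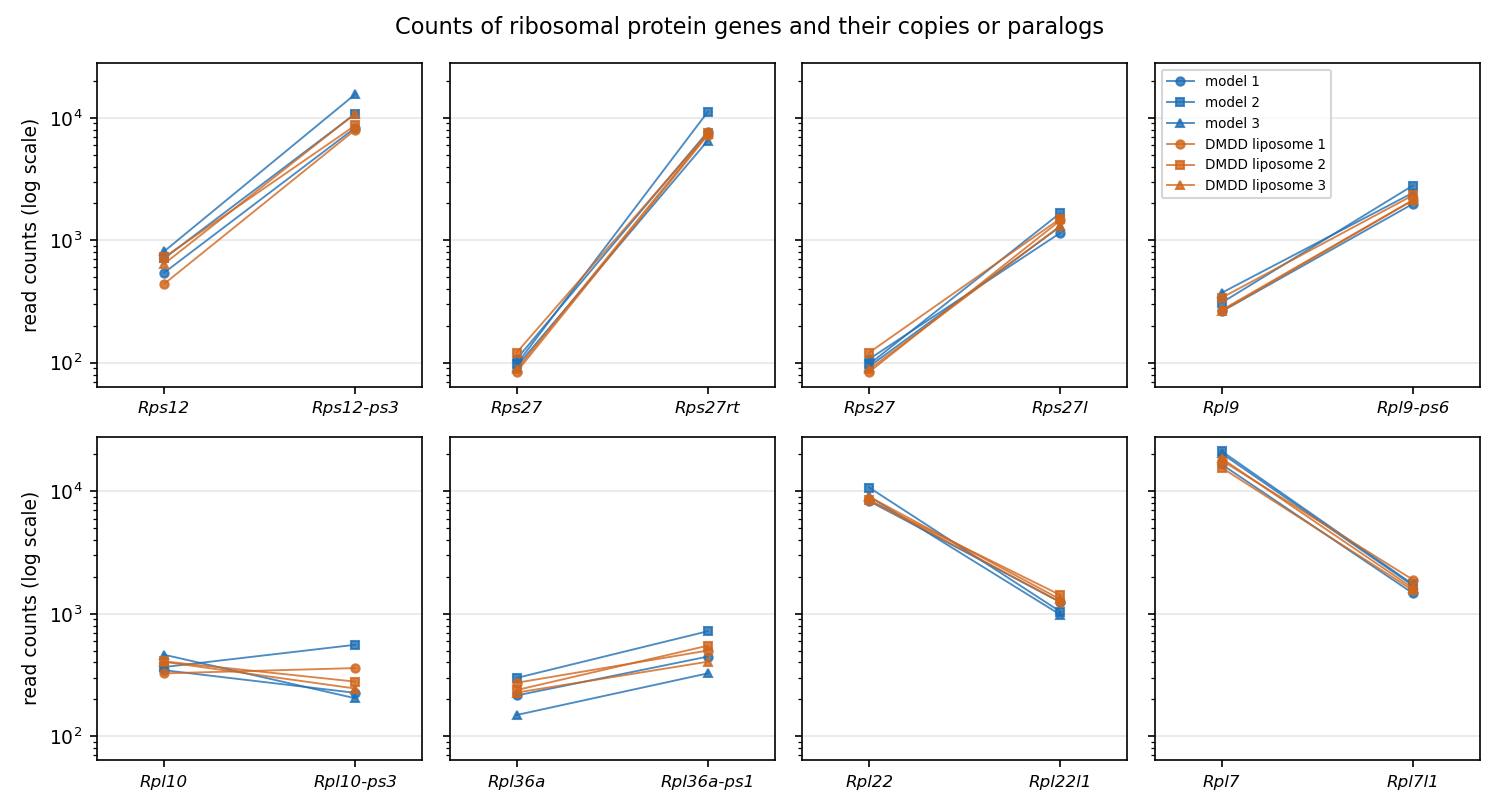
Read counts (log scale) of 8 pairs, with the parent gene at the left and its copy or paralog at the right of each panel, and 1 line per library (blue for model, orange for DMDD liposome). Lines climb steeply from Rps12, Rps27 and Rpl9 to their copies, cross for Rpl10 and Rpl10-ps3, and fall from Rpl22 to Rpl22l1 and from Rpl7 to Rpl7l1.

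Between the groups, no ribosomal protein gene differed past the threshold. Of the 90 genes, 88 passed the filter on low counts, Rpl3l and Rpl27-ps3 being the exceptions, and 0 of the 88 had an adjusted p under 0.05 in edgeR's quasi-likelihood test with Benjamini-Hochberg adjustment over all 12891 tested genes. The background was 0% as well, since that test called 0 genes anywhere. The smallest adjusted p among the members was 0.626, against 0.603 over all tested genes. In the authors' deposited table, an adjusted p under 0.05 was listed for 58 of 16763 genes, or 0.346%. None of the 90 members was among them, the smallest adjusted p of a member there being 0.481.

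At an unadjusted p under 0.05, edgeR's test took 1 of 88 members, or 1.14%, against 986 of 12891 genes, or 7.65%. That member was lower in the DMDD liposome group, as were 3.31% of all tested genes by this rule, and no member was taken on the higher side, where 4.34% of all tested genes were. The CPM values of the groups did not overlap for 8 members, or 9.09%, against 12.9% of all tested genes. Both shares were thus below the background. Log2 fold changes of DMDD liposome over model had a median of -0.04 over the 88 members and ran from -1.36 to 0.33, against a median of 0.01 and a range from -4.69 to 6.53 over all tested genes. They were negative for 53 members, or 60.2%, against 48.8% of all tested genes. The SE of these fold changes had a median of 0.157 over members and 0.173 over all tested genes. Without model library 2 the median over members was 0.02.

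The intervals of the fold changes bound what was missed. For 83 of the 88 members the 95% interval of the log2 fold change lay within -1 and 1, and for 48 it lay within -0.5 and 0.5. It excluded 0 for 1 member, Rps16. Differences inside an interval are not excluded for that gene. At the adjusted threshold the test called 0 genes of any fold change at this replication.

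**Figure D4:**
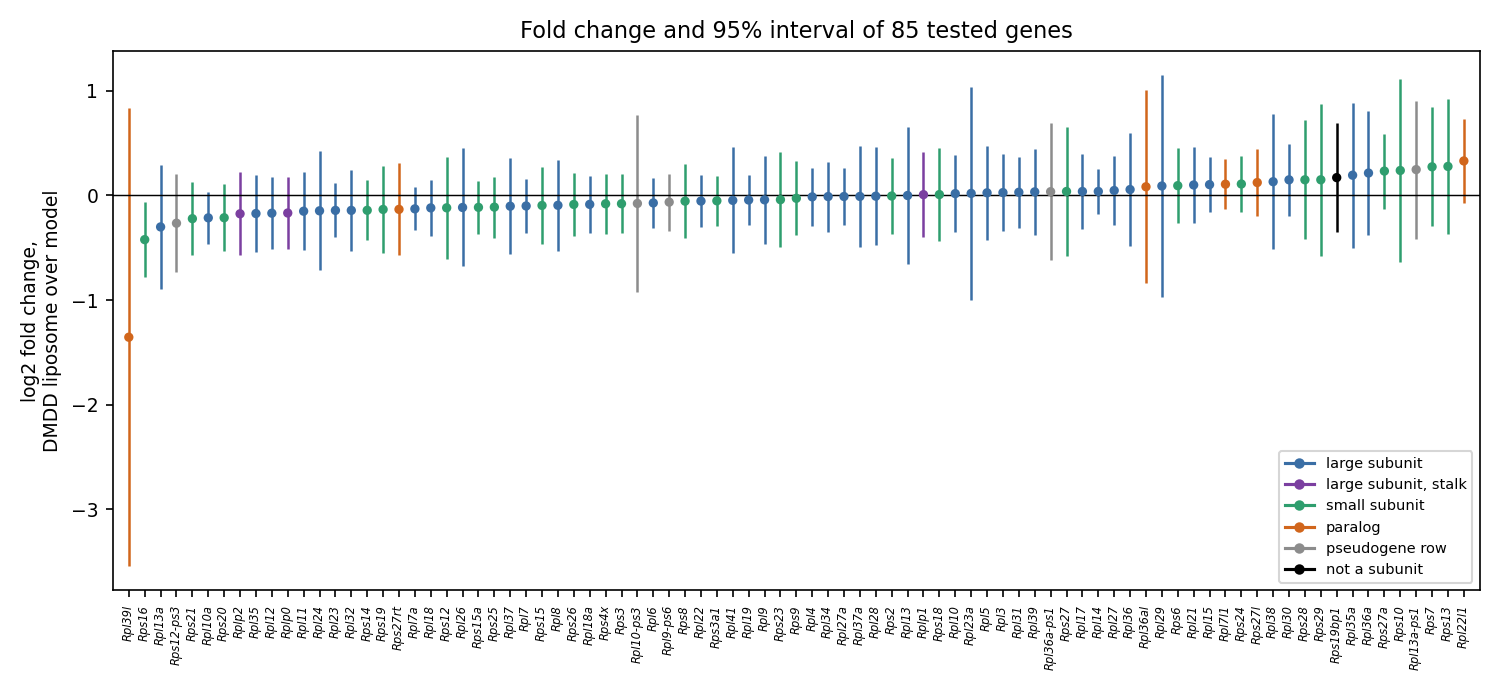
Log2 fold change of DMDD liposome over model with its 95% interval for 85 of the 88 tested genes, ordered by value and coloured by class. Most points lie between -0.25 and 0.25 and all intervals but that of Rps16 include 0. The widest belongs to Rpl39l at -1.36.

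Of the genes with the smallest p, 3 were lower and 3 higher in the DMDD liposome group, all short of the adjusted threshold. Rps16, whose tail reaches towards the decoding site, was at 23.8, 21.9 and 18.6 CPM in the model and 14.5, 16.8 and 16.6 CPM in the DMDD liposome libraries. All its DMDD liposome values lay below all its model values, with a log2 fold change of -0.42 ± 0.15 (SE), an unadjusted p of 0.0259 and an adjusted p of 0.626 in edgeR's test. Rps16 shared 33.9% of its windows with other genes and stood at 16.8 FPKM, so it was among the low-listed subunit genes. Rpl10a, of the large subunit, was at 79.1, 90.02 and 91.9 CPM in the model and 69.5, 76.5 and 78.9 CPM in the DMDD liposome libraries, with its groups nearly touching (log2 fold change -0.22 ± 0.11, adjusted p 0.666 by edgeR).

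Rpl22l1 had the highest fold change of the 88, 0.33 ± 0.17 on the log2 scale, and is described with the paralogs. Rps27a, a subunit protein made as a fusion behind ubiquitin, was at 12.5, 12.6 and 13.9 CPM in the model and 14.2, 16.8 and 14.8 CPM in the DMDD liposome libraries. Its groups did not overlap, and its log2 fold change was 0.23 ± 0.15 (adjusted p 0.752 by edgeR). Rps7, of the small subunit, was at 6.06, 5.35 and 4.27 CPM in the model and 6.52, 7.025 and 5.38 CPM in the DMDD liposome libraries, where the groups overlap. Further members without overlap included Rpl7 and Rpl7a, lower in the DMDD liposome group, and Rpl38, higher there. Their log2 fold changes were -0.10, -0.13 and 0.13, each with an unadjusted p of at least 0.180. The 6 members without overlap on the lower side were 6.82% of the 88, against 5.66% of all tested genes, and the 2 on the higher side were 2.27%, against 7.21%.

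The most counted members barely differed between the groups. Rpl4 was at 2278, 2257 and 2125 CPM in the model and 2163, 2124 and 2304 CPM in the DMDD liposome libraries, a log2 fold change of -0.02 ± 0.12. Rps3 had a log2 fold change of -0.08 ± 0.12, Rps9 of -0.03 ± 0.15 and Rpl7 of -0.10 ± 0.11. With at least 15594 counts per library for each of them, counting error was negligible and their error came from the libraries.

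The stalk genes differed more between model libraries than between groups. Rplp0 was at 869, 1222 and 1003 CPM in the model and 922, 900 and 929 CPM in the DMDD liposome libraries. Rplp1 was at 1170, 1446 and 917 CPM in the model and 1201, 1217 and 1130 CPM in the DMDD liposome libraries, and Rplp2 at 374, 402 and 266 against 276, 338 and 307 CPM. For all 3 genes model library 2 was the highest of the 6, and the DMDD liposome values lay between the lowest and highest model values. Their log2 fold changes were -0.17 ± 0.15, 0.01 ± 0.17 and -0.18 ± 0.17.

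Rpl5 and Rpl11, which with 5S ribosomal RNA can bind Mdm2 and so link ribosome assembly to p53, had log2 fold changes of 0.02 ± 0.19 and -0.15 ± 0.16. Rpl5 was at 10.9, 8.83 and 8.54 CPM in the model and 8.85, 9.22 and 10.6 CPM in the DMDD liposome libraries, an overlapping spread. Rps6, the small subunit protein phosphorylated by S6 kinase downstream of mTOR, was at 13.2, 13.2 and 14.97 CPM in the model and 16.1, 14.2 and 13.8 CPM in the DMDD liposome libraries (log2 fold change 0.09 ± 0.15). Phosphorylation is not measured by RNA counts.

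Of the 5 subunit genes of lowest listed level, Rpl5 is given above. Rps10 had a log2 fold change of 0.24 ± 0.37, Rpl29 of 0.09 ± 0.45, Rpl23a of 0.02 ± 0.43 and Rps13 of 0.28 ± 0.28. Rpl29 had 21, 39 and 28 counts in the model and 17, 45 and 26 after DMDD liposomes, and its group means hid a wide spread inside the DMDD liposome group. Rpl23a showed the same, with 19, 45 and 23 counts there. The 95% interval of the log2 fold change of Rpl29 reached from -0.97 to 1.15, so differences inside these bounds were not excluded at this depth.

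Paralogs stood far apart in level. Rpl22l1, the alternative form of the RNA-binding protein Rpl22, was at 95.4, 67.1 and 64.6 CPM in the model and 88.3, 107 and 89.3 CPM in the DMDD liposome libraries. Only model library 1 reached into the DMDD liposome range, and the adjusted p was 0.676 by edgeR. Rpl22 itself was at 639, 693 and 597 CPM in the model and 604, 636 and 615 CPM in the DMDD liposome libraries, with a log2 fold change of -0.05 ± 0.11. Counts of Rpl22l1 were 0.0969 to 0.169 times those of Rpl22. The ratio was 0.149, 0.0969 and 0.108 in the model and 0.146, 0.169 and 0.145 after DMDD liposomes, again with overlap.

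Rpl7l1, related to Rpl7, was at 113, 112.1 and 111.8 CPM in the model and 134, 118 and 110 CPM in the DMDD liposome libraries, 0.0817 to 0.106 times the counts of Rpl7. Its log2 fold change was 0.11 ± 0.10, while Rps27l had 0.12 ± 0.14 and Rps27rt -0.13 ± 0.19. Rps27 itself was at 0.04 ± 0.26, Rpl36a at 0.21 ± 0.26 and Rpl39 at 0.03 ± 0.18. Rpl36al was low at 11 to 20 counts per library (0.08 ± 0.39). None of these paralogs or parents separated the groups past the threshold.

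The tissue-restricted paralogs were near the floor of detection. Rpl39l, the testis-enriched form of the exit tunnel protein Rpl39, had 5, 29 and 19 counts in the model and 0, 11 and 8 in the DMDD liposome libraries, against 1789 to 2825 counts for Rpl39. Its log2 fold change of -1.36 ± 0.94 was the lowest of the 88 and had the widest error, with an adjusted p of 0.758 by edgeR, and its groups overlap. In DMDD liposome library 1, a count of 0 allows up to 3 counts, or 0.212 CPM. Rpl3l, the striated muscle form of Rpl3, had 1, 5 and 5 counts in the model and 2, 3 and 3 in the DMDD liposome libraries. Skeletal muscle markers, of which 11 of 12 listed genes were in the table and Myh4 and Pvalb were at 0 in at least 1 library, summed to between 117 and 124 CPM in the model libraries and to 234, 89.0 and 382 CPM in the DMDD liposome libraries.

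Subunit gene levels differed between libraries of the same group. For each subunit gene, log2 CPM was set against that gene's mean over the 6 libraries. The median of these deviations over the 76 genes was -0.00, 0.15 and -0.08 in model libraries 1 to 3 and -0.07, 0.07 and -0.06 in DMDD liposome libraries 1 to 3, whereas over all tested genes the median was within 0.01 of 0 in each library. Model library 2 was the highest of the 6 for 36 subunit genes and the lowest for 2, and model library 3 was the lowest for 26 and the highest for 2. DMDD liposome library 1 was the lowest for 23 genes and DMDD liposome library 2 the highest for 21. The model group thus held both the library with the highest median and that with the lowest.

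**Figure D5:**
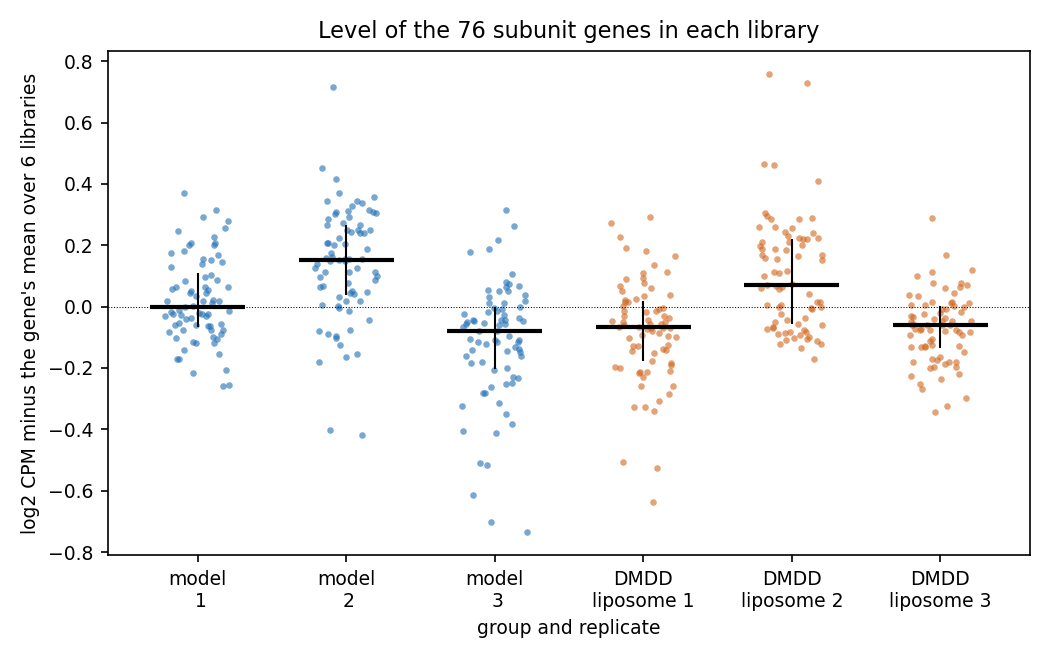
Log2 CPM of each of the 76 subunit genes minus its own mean over the 6 libraries, by library (points, spread sideways for visibility). Horizontal bars are medians and vertical bars the middle 50% of genes. Model library 2 has the highest median, 0.15, and model library 3 the lowest, -0.08, so the spread inside the model group exceeds the shift between groups.

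The members with the largest range over libraries followed single libraries. Among genes with a mean of at least 10 CPM these were Rpl10-ps3 and Rpl13. Rpl10-ps3 was at 17.3, 36.0 and 13.4 CPM in the model and 25.5, 21.1 and 16.7 CPM in the DMDD liposome libraries. Rpl13, of the large subunit, was at 34.8, 42.2 and 18.5 CPM in the model and 31.3, 35.7 and 28.3 CPM in the DMDD liposome libraries. For both genes model library 2 was the highest and model library 3 the lowest, and both had large shared sequence, 95.8% and 78.9% of windows. Their log2 fold changes were -0.08 ± 0.36 and -0.00 ± 0.28.

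The libraries that stood highest did so for different genes. In model library 2 the deviation was larger for highly listed genes (Spearman's rho with mean level 0.40 over 76 genes), and in DMDD liposome library 2 it was larger for low-listed genes (rho -0.53). In the subunit genes sharing 50% or more of their windows, the median deviation of DMDD liposome library 2 was 0.20, against -0.06 in those sharing less than 10%. For model library 2 the same medians were 0.06 and 0.18. These are descriptions over genes that share each library.

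Markers of other cells differed between these libraries as well. Skin keratinocyte markers, with 10 of 10 genes in the table, summed to 231 CPM in model library 2 and to between 5.37 and 7.40 CPM in the other 5 libraries. Of them Krt1, Krt5, Lor, Flg2, Dmkn, Lce1a1, Krtdap and Krt77 were at 0 in at least 1 library. Fibroblast markers (7 of 7 genes) summed to 4030, 7430 and 4470 CPM in the model and 4380, 10700 and 3910 CPM in the DMDD liposome libraries, so that library 2 was the highest in each group. Fat cell markers (6 of 6 genes) summed to 98.7 CPM in DMDD liposome library 2 and to between 11.0 and 34.1 CPM in the others, with Adipoq, Plin1, Cidec, Lep and Plin4 at 0 in at least 1 library.

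Macrophage markers (10 of 10 genes) summed to between 1830 and 3250 CPM in the model and between 3310 and 4550 CPM in the DMDD liposome group. Endothelial markers (8 of 8) ran from 174 to 323 CPM and from 261 to 375 CPM, neutrophil markers (9 of 9) from 458 to 586 CPM and from 497 to 782 CPM, and T cell markers (9 of 11 in the table) from 145 to 171 CPM and from 166 to 211 CPM, in the same order of groups. Single neutrophil markers did not all go with their sum: 6 of the 8 tested had negative log2 fold changes, with a median of -0.48. Of these 6, 2 had an unadjusted p under 0.05 in edgeR's test, against 3.31% of all tested genes on the lower side. Positive log2 fold changes were found for 9 of 10 macrophage, 8 of 8 endothelial and 7 of 9 T cell markers. Of these, 3, 4 and 0 had an unadjusted p under 0.05 by edgeR, against 4.34% of all tested genes on the higher side. B cell markers (7 of 7) were below 6 CPM in sum in every library, with Cd79a, Ms4a1 and Pax5 at 0 in at least 1. Epithelial tumor cell markers, whose sums are given at the start, had 2 positive and 8 negative log2 fold changes, with a median of -0.585. Of these 10, 4 were lower at an unadjusted p under 0.05 in edgeR's test, against 3.31% of all tested genes. The part of cell composition in the ribosomal protein levels was not tested.

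Related genes outside the pattern were equally short of the threshold, with 0 called in each list by edgeR at an adjusted p under 0.05. The 4 further subunit genes, Rack1, Rpsa and Fau among them, all had negative log2 fold changes, with a median of -0.14. Fau was at 38.9, 40.8 and 32.8 CPM in the model and 28.0, 36.6 and 35.5 CPM in the DMDD liposome libraries, overlapping (adjusted p 0.811).

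Among 16 TOP messengers that do not encode ribosomal proteins, such as elongation factors and poly(A)-binding protein, 2 had positive and 14 negative log2 fold changes, with a median of -0.10. Their summed level was 27100, 27100 and 26000 CPM in the model and 23800, 23800 and 26700 CPM in the DMDD liposome libraries. Eif4b, an initiation factor that assists the helicase Eif4a, was at 739, 862 and 748 CPM in the model and 635, 673 and 704 CPM in the DMDD liposome libraries. Its groups did not overlap, with a log2 fold change of -0.22 ± 0.12 and an adjusted p of 0.676 by edgeR. In all, 2 of the 16 did not overlap between groups, against 12.9% of all tested genes.

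Of 39 ribosome biogenesis factors, 11 had positive and 28 negative log2 fold changes, with a median of -0.07, and 5 did not overlap between groups, against 12.9% of all tested genes. Taf1d, a subunit of the selectivity factor of RNA polymerase I, was at 67.1, 64.0 and 68.0 CPM in the model and 46.8, 55.1 and 51.8 CPM in the DMDD liposome libraries. All DMDD liposome values lay below all model values, with a log2 fold change of -0.37 ± 0.10, and the adjusted p was 0.626 by edgeR. It was 1 of 39 at an unadjusted p under 0.05, against 7.65% of all tested genes, and was named for having the smallest p of its list. Of 25 tested regulators of ribosomal protein synthesis, 12 had positive and 13 negative log2 fold changes, with a median of -0.03. Of these 25, 2 did not overlap between groups, against 12.9% of all tested genes, and 1 had an unadjusted p under 0.05 by edgeR, against 7.65%. Rps6ka1, a kinase of the RSK family, was named for having the smallest p of this list. It was at 109, 147 and 114 CPM in the model and 103, 94.8 and 95.8 CPM in the DMDD liposome libraries (log2 fold change -0.34 ± 0.13, adjusted p 0.630 by edgeR).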

How the data were processed

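Tumor RNA for 3 model and 3 DMDD liposome libraries was taken with Trizol and an NEBNext Ultra kit was used for library preparation, as the labels' protocols state. The authors deposited whole-number read counts per gene, a signal that is each count divided by a size factor per library, FPKM, log2 fold changes and p-values, per the file headers; the log2 fold changes there are of model over DMDD liposome. The submitters' processing notes name build mm9 and DESeq2. No aligner, counter, read length or strandedness is stated in these sources.

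The counts entered edgeR 4.0.16 under R 4.3.3 (filterByExpr, minimum count 10, minimum total 15; TMM; quasi-likelihood test, two-sided, Benjamini-Hochberg over 12891 genes, threshold 0.05; common dispersion 0.0466). SEs and 95% intervals come from the quasi-likelihood F statistic. Log2 CPM used a prior count of 2. A count of 3 in a library is 0.193 to 0.230 CPM; such floors cover counting error only. Replicates of a group differed by 14.8 to 54.1 times sampling noise (chi-square per degree of freedom), so no library repeats the counts of another within sampling noise. Whether libraries share an animal or an RNA cannot be told from this. Transcripts came from GENCODE M21 (GRCm38), a build other than that of the counts, so names and sequences were used and no coordinates. Each gene's representative transcript had a RefSeq match and an APPRIS principal tag where available, then the longest coding and shortest total sequence.

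The members and lists were chosen with earlier results of these data known. Genes were named by rule: the 3 smallest p per direction, the 5 most counted, the paralogs and their parents, and the stalk. Also named were the 2 with the widest range, the 5 subunits of lowest FPKM, those called by the authors (0), Rpl5, Rpl11 and Rps6. The smallest p of each list was named too, except for cell type lists. For these, sums are given, and for some lists signs and counts at an unadjusted p. A few of these named genes are left out of the text and plots. Copies, their parents and genes shown as examples of level, shared sequence or no overlap were added after their values were seen. Alternatives were DESeq2 size factors, TMM without these genes, no filter, DESeq2 1.42.0, limma 3.58.1 voom with quality weights, a replicate block, subsets of members, and each library left out. The fits were tested on simulated data.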

Additional observations from a re-analysis of the deposited data

How the results depend on the processing

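No ribosomal protein gene passed an adjusted p of 0.05 under any alternative run. Over all tested genes the count, 0 in the main test, was 59 with DESeq2's Wald test and 0 to 112 when leaving out a library, the 112 being without model library 1. Ribosomal protein genes at an unadjusted p under 0.05, 1 in the main test, numbered 0 with the replicate block, 3 with limma-voom and 0 to 5 when leaving out a library: 2 without model library 1, 5 without model library 3 and 0 without model library 2, DMDD liposome library 1 or DMDD liposome library 3. The median log2 fold change of these genes ran from -0.11 (without model library 3) to 0.02 (without model library 2) and from -0.06 to -0.03 under the other alternatives. The log2 ratio of summed CPM, -0.08, ran from -0.15 (without model library 3) to -0.01 (without model library 2). Same-numbered libraries of the groups correlated at 0.0876, 0.114 and 0.121 in their deviations, each more than with the other numbers, a hint from the data and not the design, so the replicate numbers were not taken to pair libraries. Of 36 genes followed, none was called, and 12 of 216 log2 fold changes under alternatives other than leaving out a library changed sign. With limma-voom these were Rps9 (0.00032), Rps27 (-0.054), Rpl10-ps3 (0.085), Rpl13 (0.11), Rpl29 (-0.28) and Rpl23a (-0.28). With the replicate block they were Rpl10-ps3 (0.031), Rpl13 (0.068) and Rpl23a (-0.068). Rplp1 was at -5.5e-05 with DESeq2 size factors, -0.010 with no filter and -0.0022 with DESeq2's Wald test. Leaving out a library turned 29 of 216 values, in 13 genes, whose ranges were -0.058 to 0.0037 for Rpl4, -0.16 to 0.070 for Rps9, -0.16 to 0.25 for Rpl36al, -0.33 to 0.046 for Rps27rt, -0.037 to 0.42 for Rpl36a, -0.12 to 0.21 for Rpl39, -0.20 to 0.18 for Rps27, -0.16 to 0.17 for Rplp1, -0.35 to 0.45 for Rpl10-ps3, -0.29 to 0.25 for Rpl13, -0.42 to 0.37 for Rpl29, -0.51 to 0.26 for Rpl23a and -0.060 to 0.14 for Rpl5. The cause was not tested. Where reads of near-identical genes were placed limits single members, and 3 libraries per group limit every comparison.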
